A study of Mus musculus with 374 samples.

Results

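The genes described are 6 of the 19829 mouse genes in the count table, namely Ltf, Camp, Ngp, Lcn2, Chil3 and Cd177, which were chosen by name because their proteins belong to the specific granules of neutrophils or are displayed with them. They were measured in single cells of 5 populations sorted from 1 female C57BL/6 mouse of 10 to 13 weeks, with 1 cell per well of 1 plate. The sort gave 96 granulocytes (Mac1+ Gr1+), 95 progenitor/stem cells (LSK, that is lineage-negative, Kit+ and Sca1+), 44 B lymphocytes (B220+, small by forward scatter) and 96 erythroblasts (Ter119+ CD44+, of mid or high forward scatter) from bone marrow, and 43 T lymphocytes (CD3+, small by forward scatter) from the thymus. The mouse was untreated as far as the labels tell, and each population is 1 sample of that 1 animal, so no test between populations was possible. Intervals are 95% exact intervals and cover counting error only.

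A neutrophil fills its granules in sequence as it matures in the marrow. Primary (azurophil) granules with myeloperoxidase and elastase come first, specific granules follow in the myelocyte and metamyelocyte, and gelatinase granules come last, before the cell leaves for the blood. Each protein goes into the granule being built while its gene is transcribed, so the transcripts of specific granule proteins mark a middle stage and are low in the mature cell, which still holds the proteins. Transcription factors of the C/EBP family, C/EBP epsilon above all, are needed for these genes.

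The members differ in what they do. Ltf encodes lactoferrin, which binds iron, and Lcn2 encodes lipocalin 2, which binds the iron carriers of bacteria. Camp encodes the cathelicidin from which an antimicrobial peptide is cut, and Ngp a secreted granule protein related to the cystatins and cathelicidins. Chil3 (Ym1) encodes a chitinase-like lectin that macrophages and monocytes can also make, and Cd177 a receptor on a lipid anchor in the neutrophil membrane. In GENCODE M21 (GRCm38; the build of the deposited counts is not given in the sources used here) 3 of them lie on chromosome 9, Camp at 109847379 to 109849617 on the minus strand, Ngp at 110419747 to 110423012 on the plus strand and Ltf at 111019271 to 111042767 on the plus strand, with gaps of 570.1 kb and 596.3 kb. Lcn2 lies on chromosome 2 at 32384633 to 32388252, Chil3 on chromosome 3 at 106147554 to 106167564 and Cd177 on chromosome 7 at 24743983 to 24760311, all on the minus strand. No other annotated gene overlaps any of the 6.

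Ltf, Ngp and Lcn2 hold a C/EBP-type motif near their start sites, and Camp, Chil3 and Cd177 hold none of the motifs searched. Whether this bears on how the members move together from cell to cell was not tested. Camp had the highest Spearman correlation with the sum of the other 5 members (0.89 over 94 granulocyte wells). The RefSeq sequences (GRCm38.p6) before the start sites are shown for the 3 members with the C/EBP-type motif and for Chil3. Each is the 250 bases before the start, 5′ to 3′ on the gene's strand, with motif matches in capitals: Ltf chr9:111019042-111019291 (plus), Ngp chr9:110419558-110419807 (plus), Lcn2 chr2:32387740-32387989 (minus) and Chil3 chr3:106167565-106167814 (minus).
Ltf: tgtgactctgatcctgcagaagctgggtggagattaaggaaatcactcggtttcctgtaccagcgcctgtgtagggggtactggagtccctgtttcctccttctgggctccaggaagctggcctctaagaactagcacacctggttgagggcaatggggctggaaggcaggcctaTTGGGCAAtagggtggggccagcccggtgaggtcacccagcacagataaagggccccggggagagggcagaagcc
Ngp: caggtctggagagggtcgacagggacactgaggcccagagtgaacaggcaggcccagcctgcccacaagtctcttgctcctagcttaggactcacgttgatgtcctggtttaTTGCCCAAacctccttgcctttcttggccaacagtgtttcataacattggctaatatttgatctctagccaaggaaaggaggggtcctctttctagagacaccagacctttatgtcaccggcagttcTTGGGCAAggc
Lcn2: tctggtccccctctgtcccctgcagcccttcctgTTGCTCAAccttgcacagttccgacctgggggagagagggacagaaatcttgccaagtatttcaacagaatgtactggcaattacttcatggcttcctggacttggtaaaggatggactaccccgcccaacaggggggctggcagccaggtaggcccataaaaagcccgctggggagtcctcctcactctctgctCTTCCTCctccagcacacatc
Chil3: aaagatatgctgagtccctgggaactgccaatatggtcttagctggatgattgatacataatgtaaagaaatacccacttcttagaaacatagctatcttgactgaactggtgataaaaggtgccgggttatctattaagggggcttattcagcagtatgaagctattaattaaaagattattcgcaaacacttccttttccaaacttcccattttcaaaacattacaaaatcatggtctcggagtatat

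The motif TTGCNNAA (C/EBP type) was found on either strand in the 300 bases around the start (250 before and 50 after) of Ltf, Ngp and Lcn2, that is in 3 of 6 members, beside 10.8% of 32817 mouse promoters of the same length. Ngp held it at both 138 and 11 bases before the start, Ltf at 75 and Lcn2 at 216. GAGGAAG (PU.1 type) was found in Lcn2 only among the 6, as its reverse complement 21 bases before the start, beside 13.6% of promoters. TGTGGT (RUNX type) was found in Ltf only, 26 bases after the start and so outside the sequence shown, beside 16.8% of promoters. The windows of Camp, Chil3 and Cd177 held none of these letters. A match is a run of letters and not a measured site. The GENCODE models of Ltf, Camp, Ngp and Lcn2 begin further upstream than the RefSeq starts used here. The matches of Lcn2 and the Ngp match at 11 bases thus lie within the GENCODE genes.

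The granulocyte label was checked first. S100a8 and S100a9, the alarmins of neutrophils, made up 44584 and 52733 CPM (UMIs on a gene scaled to 1e6 UMIs on mouse genes) of the granulocytes, against at most 1613 and 2069 CPM elsewhere, in the B lymphocytes. Of the 500 UMIs of the pair in the B lymphocytes 305 came from 1 well, A8, and without it the highest were the T lymphocytes, at 793 and 1028 CPM. Ly6g, which defines neutrophils on the surface, had 10 UMIs in 9 of 96 wells. The gate was not of 1 cell type: of the 94 granulocyte wells with at least 1000 mouse UMIs, 13 held between 25 and 143 UMIs on 8 monocyte markers (Csf1r, Ccr2, F13a1, Fn1, Ms4a6c, Irf8, Klf4 and Ly86), and the other 81 held 0 to 3. Ccr2, the receptor that draws monocytes out of the marrow, had 272 UMIs in the 13 wells and 4 in the 81. Gr1 fluorescence, whose antibody also binds the Ly6C of monocytes, was 736 to 3007 in the 13 wells and 871 to 49318 in the 81, in arbitrary units. The results are given with and without the 13 wells, a division chosen after the data had been seen by markers that include no member.

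Depth was 403506 mouse UMIs for granulocytes, 834812 for progenitor/stem cells, 135808 for B lymphocytes, 200396 for T lymphocytes and 666728 for erythroblasts. Granulocyte wells held 8 to 22425 UMIs with a median of 3880. Of all 374 wells, 7 were most alike to the summed counts of a population other than their own. No barcode was shared between wells.

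Each of the 6 genes was highest in the granulocytes, by 14.3-fold (Chil3 over the T lymphocytes) or more against every other population. Together they gave 17788 of the granulocyte UMIs, or 44084 CPM (interval 43438 to 44736). The sum was 1357 CPM (1201 to 1529) in the T lymphocytes, 1347 CPM (1159 to 1558) in the B lymphocytes, 852 CPM (790 to 917) among progenitor/stem cells and 591 CPM (534 to 652) among erythroblasts. That is 51.8-fold (48.0 to 55.9) over the progenitor/stem cells, 32.7-fold (28.3 to 38.1) over the B lymphocytes, 32.5-fold (28.8 to 36.7) over the T lymphocytes and 74.6-fold (67.5 to 82.6) over the erythroblasts. B and T lymphocytes could not be ordered, as the interval of their ratio held 0 on the log2 scale (0.01, interval -0.27 to 0.29), but this rests on the B lymphocyte well A8: without it the T lymphocytes were higher by 0.36 (0.06 to 0.66).

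All 6 members were at least 4-fold higher in the granulocytes than in each of the other populations, counting genes with at least 20 UMIs in the pair and setting sums under 3 UMIs to 3. The background is the share of all such genes that were 4-fold higher, which was 5.64% against the progenitor/stem cells, 9.38% against the B lymphocytes, 10.5% against the T lymphocytes and 19.9% against the erythroblasts. The median log2 ratio of the members was 6.30, 4.99, 5.38 and 6.91 in the same order, beside -0.95, -0.18, -0.48 and -0.29 over all genes. Without the 13 wells with monocyte markers the 6 members reached 54566 CPM in the 81 wells. With DESeq2 size factors in place of total UMIs, the log2 ratio of the summed members over the progenitor/stem cells was 6.63 in place of 5.69, and as a mean of wells that over the erythroblasts was 5.62 in place of 6.22.

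**Figure D1:**
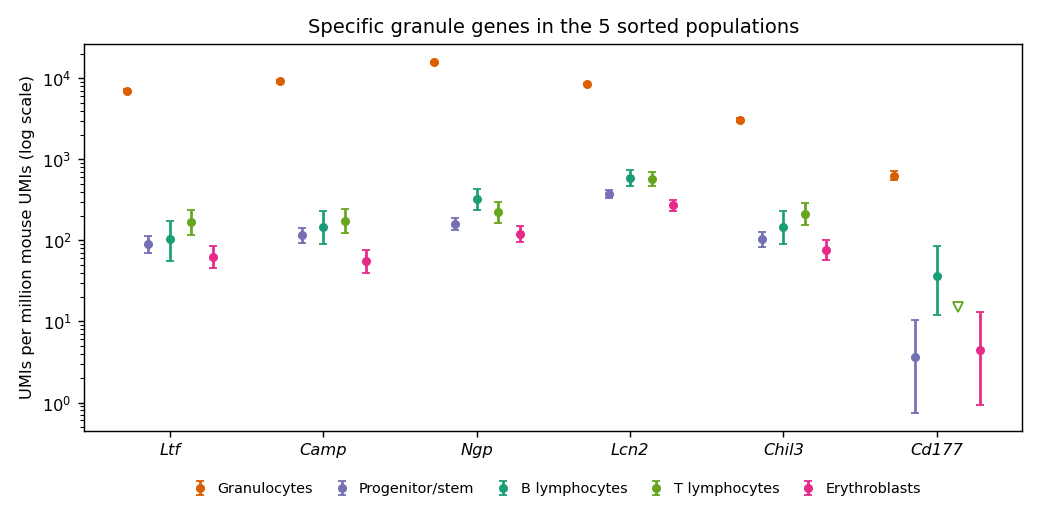
CPM (log scale) of each gene in the 5 sorted populations, with 95% exact Poisson intervals for counting error; each point is the sum over all wells of 1 population of 1 mouse. Every gene is highest in the granulocytes, Lcn2 is the highest of the 6 in each of the other populations, and the open triangle is the limit of 15.0 CPM that 0 UMIs of Cd177 allow in the T lymphocytes.

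Among the iron-binding proteins, Ltf had 2845 UMIs in the granulocytes, or 7051 CPM (6794 to 7315). It stood at 170 CPM in the T lymphocytes (34 UMIs), 103 CPM in the B lymphocytes (14), 89.8 CPM in the progenitor/stem cells (75) and 63.0 CPM in the erythroblasts (42). Among neighbours in this order, only the step from granulocytes down was clear of counting error, since the intervals of the ratios below it all held 1. Populations further apart were not compared by ratio. The interval of the T lymphocytes (117 to 237 CPM) lay above those of the progenitor/stem cells (70.7 to 113) and erythroblasts (45.4 to 85.1).

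Lcn2 had 3433 UMIs and 8508 CPM (8226 to 8797) in the granulocytes. It was 589 CPM in B lymphocytes (80 UMIs), 574 CPM in T lymphocytes (115), 379 CPM in the progenitor/stem cells (316) and 270 CPM in the erythroblasts (180). The B and T lymphocytes could not be ordered, but the T lymphocytes lay above the progenitor/stem cells and these above the erythroblasts by log2 ratios of 0.60 (0.28 to 0.91) and 0.49 (0.22 to 0.76). Without well A8 the B lymphocytes fell to 396 CPM, below the T lymphocytes by a log2 ratio of 0.53 (0.05 to 1.04). Its granulocyte level was 14.4-fold to 31.5-fold that of the others, less than for Ltf, whose range was 41.6-fold to 112-fold.

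Of the antimicrobial proteins, Camp had 3691 UMIs and 9147 CPM (8855 to 9447) in the granulocytes. The others were at 175 CPM (T lymphocytes, 35 UMIs), 147 CPM (B lymphocytes, 20), 115 CPM (progenitor/stem cells, 96) and 55.5 CPM (erythroblasts, 37). The progenitor/stem cells lay above the erythroblasts by 1.05 on the log2 scale (0.49 to 1.64), and the steps above them could not be ordered.

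Ngp had 6325 UMIs, the most of the 6, and 15675 CPM (15291 to 16066) in the granulocytes. Below came 324 CPM in B lymphocytes (44 UMIs), 225 CPM in T lymphocytes (45), 161 CPM in the progenitor/stem cells (134) and 121 CPM in the erythroblasts (81). No neighbouring pair among these 4 could be ordered beyond counting error. Further apart, the interval of the B lymphocytes was 235 to 435 CPM, or 186 to 371 without well A8, and that of the T lymphocytes 164 to 300. Both lay above that of the erythroblasts (96.5 to 151).

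Chil3, the chitinase-like lectin, had 1241 UMIs and 3076 CPM (2907 to 3252) in the granulocytes. It was at 215 CPM in the T lymphocytes (43 UMIs), 147 CPM in the B lymphocytes (20), 104 CPM in the progenitor/stem cells (87) and 76.5 CPM in the erythroblasts (51), and none of these neighbours could be ordered. Further apart, the interval of the T lymphocytes (155 to 289 CPM) lay above those of the progenitor/stem cells (83.5 to 129) and erythroblasts (57.0 to 101). Chil4, the near copy of Chil3, had 9 UMIs in the granulocytes and 0 in the other populations. How reads that match both were assigned is not given in the sources used here, so reads of the pair may be split between them.

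Cd177, the surface receptor, was the least abundant, with 253 UMIs and 627 CPM (552 to 709) in the granulocytes. It was at 36.8 CPM (5 UMIs) in the B lymphocytes, 4.50 CPM (3) in the erythroblasts and 3.59 CPM (3) in the progenitor/stem cells. The 0 UMIs in the T lymphocytes allow up to 15.0 CPM, with a floor of 3 UMIs taken over that population, so the granulocytes at 627 CPM were at least 41.9-fold higher. The exact interval of that ratio, which also counts the error in the granulocytes, began at 33.8. The ratio was 174 (59.0 to 852) over the progenitor/stem cells and 139 (47.1 to 680) over the erythroblasts. Of the 5 UMIs in the B lymphocytes, 3 came from 1 well.

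That well, the B lymphocyte well A8, held 44 of the 183 member UMIs of its population, 28 of them from Lcn2. Its Gr1 fluorescence was 15209 and its counts were most alike to the granulocyte sum. Without it the 6 genes came to 1059 CPM (890 to 1250) in the B lymphocytes, and Lcn2 had 52 UMIs.

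The members did not keep the same proportions in the other populations. Lcn2 gave 19.3% of the member UMIs in the granulocytes but 42.3% to 45.7% in the other 4 populations, while Ngp gave 35.6% and 16.5% to 24.0%. Per UMI of Ngp there were 0.543 UMIs of Lcn2 in granulocytes, 2.36 in progenitor/stem cells, 1.82 in B lymphocytes, 2.56 in T lymphocytes and 2.22 in erythroblasts. The ratio was thus 4.34 times (3.52 to 5.38), 3.35 times (2.28 to 4.97), 4.71 times (3.30 to 6.82) and 4.09 times (3.12 to 5.41) that of the granulocytes.

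Chil3 was also higher per Ngp UMI outside the granulocytes, by 3.31 times (2.48 to 4.40) in progenitor/stem cells, 2.32 times (1.29 to 4.03) in B lymphocytes, 4.87 times (3.11 to 7.60) in T lymphocytes and 3.21 times (2.20 to 4.64) in the erythroblasts. For Camp the same ratio was 0.779 to 1.33 times that of the granulocytes and all 4 intervals held 1, but they ran from 0.434 to 2.12 and so allow a change of that size. Ltf was higher per Ngp UMI in the T lymphocytes (1.68 times, 1.04 to 2.69), and its other 3 intervals held 1. Retnlg, a resistin-like gene of late neutrophils and no member, was 3.45 to 3.64 times higher per Ngp UMI in 3 of the other populations. In the B lymphocytes it was 6.57 times higher (4.70 to 9.35), but well A8 held 132 of their 192 Retnlg UMIs, and without it the value was 2.58 (1.67 to 4.04). Of the 81 granulocyte wells without monocyte markers, 51 had at least 20 UMIs of Lcn2 and Ngp together. The share of Lcn2 in these was 19.9% to 100% with a median of 36.0%, and 4 wells reached the 64.5% that was the lowest of the other populations. The other 30 wells had fewer UMIs of the pair and were not compared. The shares and the count of 4 therefore do not cover the granulocyte wells poor in both genes. Over those 51 wells the share had a Spearman correlation of -0.56 with the summed CPM of the other 4 members, as a description. What gives the UMIs of these genes in the other populations was not tested.

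Within the granulocyte gate the genes differed widely between wells. The 6 genes took 0.131% of a well's mouse UMIs at the lowest, 1.10% at the median and 15.7% at the highest of 94 wells, and the upper quartile was 6.54%. In the T lymphocytes the share was 0.0473% to 0.472% with a median of 0.121%. A total of 26 granulocyte wells lay at or below the highest T lymphocyte well, and 14 without that well. Of the 26, 8 were wells with monocyte markers, 7 of which held Chil3, at up to 32 UMIs against at most 6 in a T lymphocyte well, so the summed share hides their Chil3. The other 18 were among the 81 wells without monocyte markers.

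**Figure D2:**
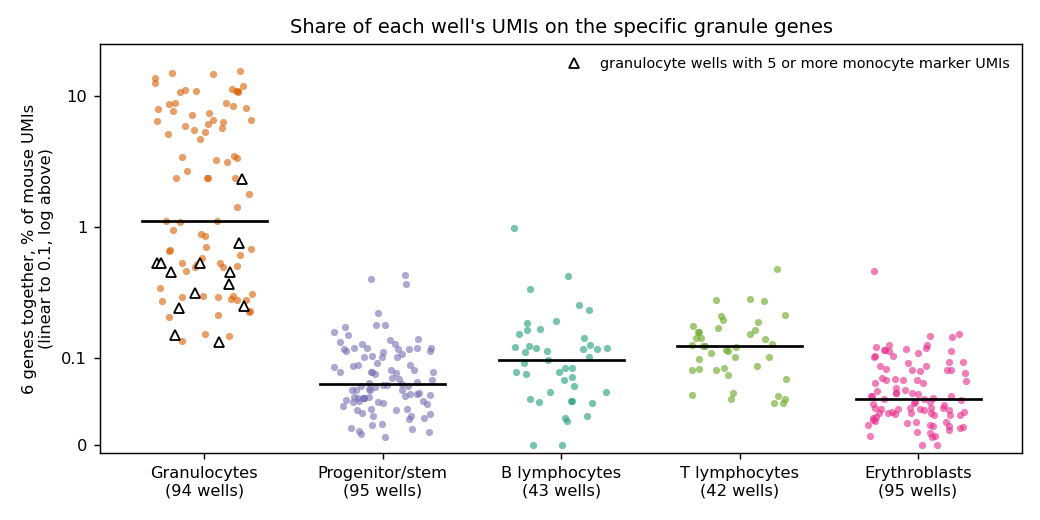
Percent of each well's mouse UMIs on the 6 genes together, for wells with at least 1000 mouse UMIs; the axis is linear to 0.1% and logarithmic above, bars are medians, and open triangles are the 13 granulocyte wells with monocyte markers. Granulocyte wells run from 0.131% to 15.7%, and the 1 B lymphocyte well near 1% is A8 (0.971%).

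All 6 members had a UMI in 42 of 94 granulocyte wells, and in 40 of the 81 without monocyte markers. When each well was thinned to 1000 UMIs, 19 of 94 wells held all 6. Lcn2 was found in most granulocyte wells, 90 of 96 (93.8%, exact interval 86.9% to 97.7%), at a median of 20.5 UMIs. The same share was 90.7% (77.9% to 97.4%) in the T lymphocytes, at up to 11 UMIs in a well, so a UMI of Lcn2 alone does not mark a granulocyte. Cd177 was found in 70 of 96 granulocyte wells (72.9%, 62.9% to 81.5%) and in 0 of 43 T lymphocyte wells.

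The 13 wells with monocyte markers set Chil3 apart from Ltf, Camp, Ngp and Lcn2. In 12 of them (all but well I13) Ltf stood at 130 CPM (59.3 to 246), Camp at 130 CPM (59.3 to 246), Ngp at 158 CPM (79.1 to 283) and Lcn2 at 346 CPM (221 to 514). These lie within the range of each gene over the other 4 populations. Chil3 stood at 2837 CPM (2455 to 3262) in the same 12 wells and at 3152 CPM (2958 to 3355) in the 81 wells without monocyte markers. These are values of summed counts. The median of single wells was 2749 CPM in the 12 and 668 CPM in the 81, of which 54 held a UMI of Chil3.

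Chil3 had 8 to 32 UMIs in 11 of the 12 wells and 0 in the other, I17, which also had 0 UMIs of Lyz2, the lysozyme of neutrophils and monocytes. Lyz2 was at 21603 CPM in the 12 wells and 11388 CPM in the 81, and S100a8 and S100a9 together at 720 CPM against 122066 CPM. Cd177 had 13 UMIs in 5 of the 12 wells, up to 6 in 1 well. With I13 included, the 13 wells held 20.9% of the Chil3 UMIs of the gate and 0.844% to 6.32% of those of each other member. Without I13 the 12 wells held 15.9% of those of Chil3 and 0.174% to 5.14% of those of each other member. Chil3 was not concentrated in the 13 wells, where it stood at 2820 CPM, beside 3076 CPM in all 96 granulocyte wells.

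Well I13 stood apart from both sets. It was the deepest granulocyte well at 22425 UMIs, with 143 UMIs on monocyte markers, 212 of Camp, 201 of Ngp, 25 of Lcn2, 15 of Ltf, 62 of Chil3 and 3 of Cd177. It also held 128 of the 142 granulocyte UMIs of Elane (neutrophil elastase) and 48 of the 50 of Mpo (myeloperoxidase), both of the primary granules. Whether it held more than 1 cell was not tested.

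Correlations across wells are given as Spearman's rho of CPM, as a description without a test, since wells are cells of 1 mouse that share the plate, the gate and a denominator. Ltf, Camp, Ngp and Lcn2 formed a block over the 94 wells. Their 6 pairs ran from 0.77 for Ltf and Lcn2 to 0.88 for Camp and Ngp, beside a median of 0.0081 over 87571 pairs of genes of 100 UMIs or more. Camp had the highest correlation with the sum of the other 5 members, 0.89.

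Chil3 was nearer to this block when the wells with monocyte markers were left out. Over 94 wells its correlation was 0.60 with Ltf, 0.61 with Camp, 0.52 with Ngp and 0.42 with Lcn2. Over the 81 wells these were 0.81, 0.79, 0.76 and 0.69. The median of all 15 pairs went from 0.61 to 0.79, and that of the 4-gene block from 0.85 to 0.87.

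Cd177 was looser, at 0.57 to 0.62 with the 4 genes over 94 wells and 0.55 to 0.61 over 81. Its counts are low, and with wells thinned to 1000 UMIs the median of its pairs was 0.28. Depth moved with the genes: over the 81 wells the correlation with total mouse UMIs was 0.51 for Chil3, 0.54 for Cd177 and 0.62 to 0.71 for the other 4. Given the total UMIs, the medians over the 81 wells were 0.76 for the 4-gene block, 0.65 for the pairs of Chil3 and 0.34 for those of Cd177.

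**Figure D3:**
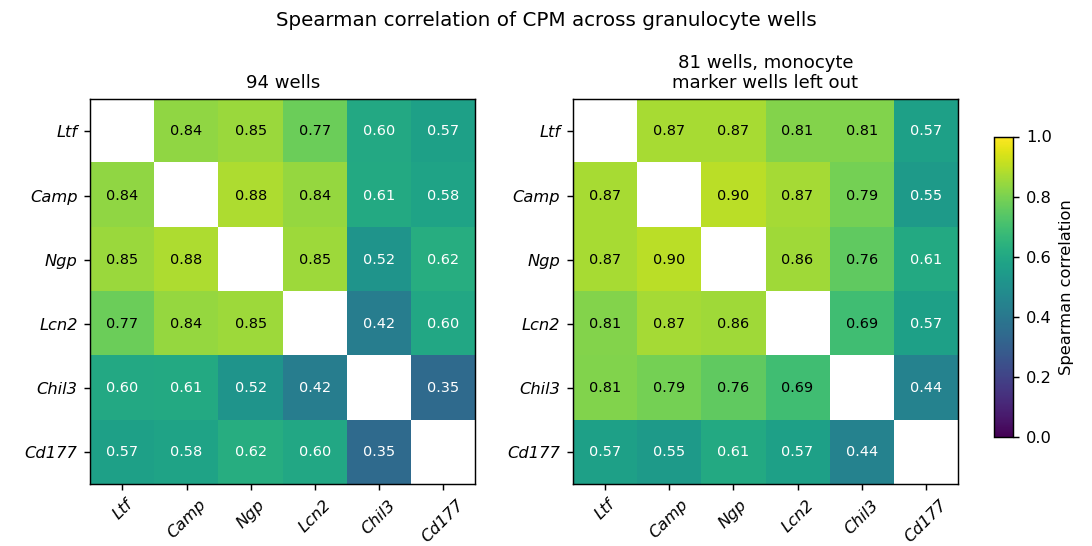
Spearman correlation of CPM for each pair of the 6 genes across the 94 granulocyte wells with at least 1000 mouse UMIs (left) and across the 81 of them with fewer than 5 monocyte marker UMIs (right). The row of Chil3 rises from 0.42 to 0.61 with the first 4 genes on the left to 0.69 to 0.81 on the right, and the row of Cd177 stays between 0.35 and 0.62.

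A total of 419 other genes held 100 UMIs or more and were seen in 25% of the wells or more, and 21 of them (5.01%) had a correlation of 0.5 or more with the summed CPM of the members and 15 (3.58%) of -0.5 or less. The nearest were Itgb2l (0.80), an integrin subunit, Ifitm6 (0.80), of the interferon-induced transmembrane family, Anxa1 (0.77), which encodes annexin A1, and Cybb (0.75), the membrane subunit of the NADPH oxidase that is stored in specific granules. Adpgk (0.75), a glucokinase, Wfdc21 (0.73), Cpne3 (0.72) and Serpinb1a (0.70), an inhibitor of neutrophil proteases, followed. At the other end stood Ccl6 (-0.74), a chemokine, Srgn (-0.70), the proteoglycan core of granules, Tgfbi (-0.69) and Ly6e (-0.62).

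Over the 81 wells 272 genes met the same limits, 22 of them (8.09%) at 0.5 or more and 35 (12.9%) at -0.5 or less. Cybb was then the nearest at 0.89, Ifitm6 stayed at 0.79, and Ccl6 and Srgn were the farthest at -0.87 and -0.84. Csf3r (-0.79), the receptor for G-CSF, and Cxcr2 (-0.77), the chemokine receptor of mature neutrophils, took the places of Tgfbi and Ly6e among the lowest 5, which also held Malat1 (-0.76). Tgfbi had too few UMIs in the 81 wells to be compared.

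Transcripts of erythroblasts moved against the members. All 7 erythroblast markers had UMIs in the granulocyte wells, led by the globins, at 40 to 183 UMIs per well with a median of 62. Their summed CPM had a correlation of -0.26 with the summed members over the 94 wells and of -0.48 over the 81, where 4 of the 7 could be compared and 1, Hbb-bs, a beta globin, was at -0.5 or less (-0.54). Their CPM ran against depth (-0.74 with total UMIs over the 81 wells), and given the total UMIs the correlation with the members was 0.06.

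**Figure D4:**
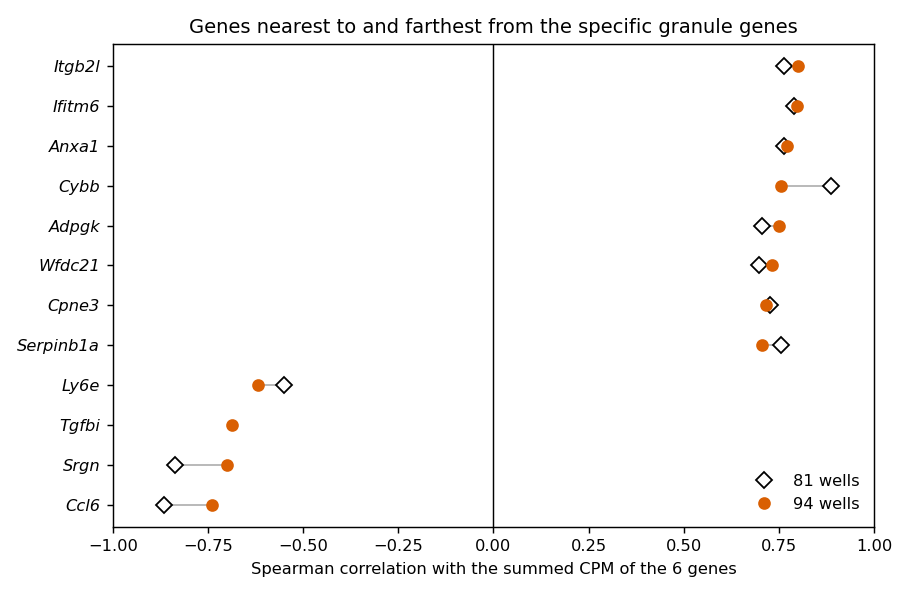
Spearman correlation with the summed CPM of the 6 genes for the 8 nearest and 4 of the 5 farthest genes, over 94 granulocyte wells (filled) and over the 81 with fewer than 5 monocyte marker UMIs (open); Tgfbi has no open symbol because it did not reach 100 UMIs and 25% of wells. Cybb moves from 0.75 to 0.89 and Ccl6 from -0.74 to -0.87.

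Member by member, Itgb2l was nearest to Ltf (0.75), Camp (0.75) and Ngp (0.81) over 94 wells, Ifitm6 to Lcn2 (0.79), Anxa1 to Cd177 (0.68) and Cybb to Chil3 (0.76). Next to Chil3 came C3 (0.62), a complement component, and Serpinb1a (0.61). Over the 81 wells Cybb was the nearest gene to Ltf, Camp, Ngp, Lcn2 and Chil3 (0.71 to 0.88), and Anxa1 stayed nearest to Cd177 (0.64).

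Genes of other granule stages were followed by lists. Of 12 other genes of specific granules or their membrane, 11 were in the table and 10 could be compared. Of these, 4 were at 0.5 or more over 94 wells, with a median of 0.32, and 3 over 81 wells, with a median of 0.39, beside medians of -0.05 and -0.09 over all genes compared. Cybb (0.89), Itgam, the Mac-1 subunit (0.59), and Lyz2 (0.59) were high over the 81 wells, while Mmp8 (0.06), the neutrophil collagenase, and Hp (-0.09), haptoglobin, were near 0. Slpi, a protease inhibitor, ran against the members at -0.41 on 123 UMIs, the lowest of the list.

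Of 9 genes of gelatinase granules and late neutrophils, 6 could be compared, of which 1 was at -0.5 or less over 94 wells and 3 over 81 wells. Over the 81 wells these were Csf3r (-0.79), Cxcr2 (-0.77) and Retnlg (-0.54). Of the rest, Fpr1 was at -0.24, Mmp9, the gelatinase itself, at -0.18 and Fpr2 on the other side at 0.19. None of the 6 was at 0.5 or more. The summed CPM of the list was at -0.23 over 94 wells and -0.60 over 81. Given the total UMIs, these became 0.03 and -0.45. Retnlg ran against Chil3 over 94 wells (-0.70) and barely against Lcn2 (-0.05) or Ngp (-0.15), but over the 81 wells its values were -0.68, -0.46 and -0.52.

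None of the 6 primary granule genes had enough UMIs outside well I13 to be compared: the 81 wells held 30 UMIs of them in all. Cebpe, which encodes C/EBP epsilon, had 61 UMIs in 31 granulocyte wells, 1 UMI in the progenitor/stem cells and 0 elsewhere. At that depth its correlation with the summed members, 0.60 over 94 wells and 0.61 over 81, is only a description, and it was under the limit of 100 UMIs. Of 8 cell division genes, 2 could be compared over 94 wells and neither was beyond 0.5 in either direction.

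The index sort gives surface protein beside these transcripts. Over the 94 wells, Gr1 fluorescence had a correlation of -0.63 with Chil3 and of -0.18 to 0.06 with the other 5 members. Given the total UMIs, these were -0.48 for Chil3 and 0.04 to 0.22 for the other 5. The sign changed for Ltf, Camp, Ngp and Cd177, and that of Lcn2 was positive both ways. Over the 81 wells the correlation with Gr1 was -0.62 for Chil3, -0.50 for Ltf and for Camp, -0.52 for Ngp, -0.43 for Cd177 and -0.37 for Lcn2. The difference between Chil3 and the rest was smaller without the 13 wells. These all had low Gr1, 12 of them held Chil3 (all but I17), and 12 held little Ltf, Camp, Ngp and Lcn2 (all but I13).

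The 81 wells were also divided at a Gr1 of 10000, a limit chosen after the data had been seen. Of them, 12 had Gr1 under 10000, with the members at 23517 to 156541 CPM and a median of 109892. The lowest of the 12 thus lay just under the median of all 81 wells, 23727 CPM. The 69 wells with more Gr1 ran from 1329 to 120078 CPM with a median of 11024, so the ranges overlapped. Retnlg was at a median of 449 CPM in the 12 wells and 19369 CPM in the 69. Total UMIs also differed, with medians of 4890 and 3195.

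Within the 69 wells, and so over a narrower range of Gr1, the correlation with Gr1 was -0.44 for Chil3 and -0.16 to -0.32 for the other 5. The block itself remained within them, at a median of 0.83 for the pairs of Ltf, Camp, Ngp and Lcn2 and 0.65 for those of Chil3. Side scatter (SSC-A), which rises with granularity, had a correlation of -0.52 to -0.65 with 5 members over both the 81 and the 69 wells and of -0.39 and -0.37 with Cd177. CD44 fluorescence was at -0.52 to -0.65 with those 5 over the 81 wells and at -0.35 to -0.52 over the 69. Given the total UMIs, the correlations over the 81 wells were -0.19 to -0.54 for Gr1, -0.15 to -0.56 for CD44 and -0.19 to -0.52 for side scatter. Depth moved with both the fluorescence and the genes.

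**Figure D5:**
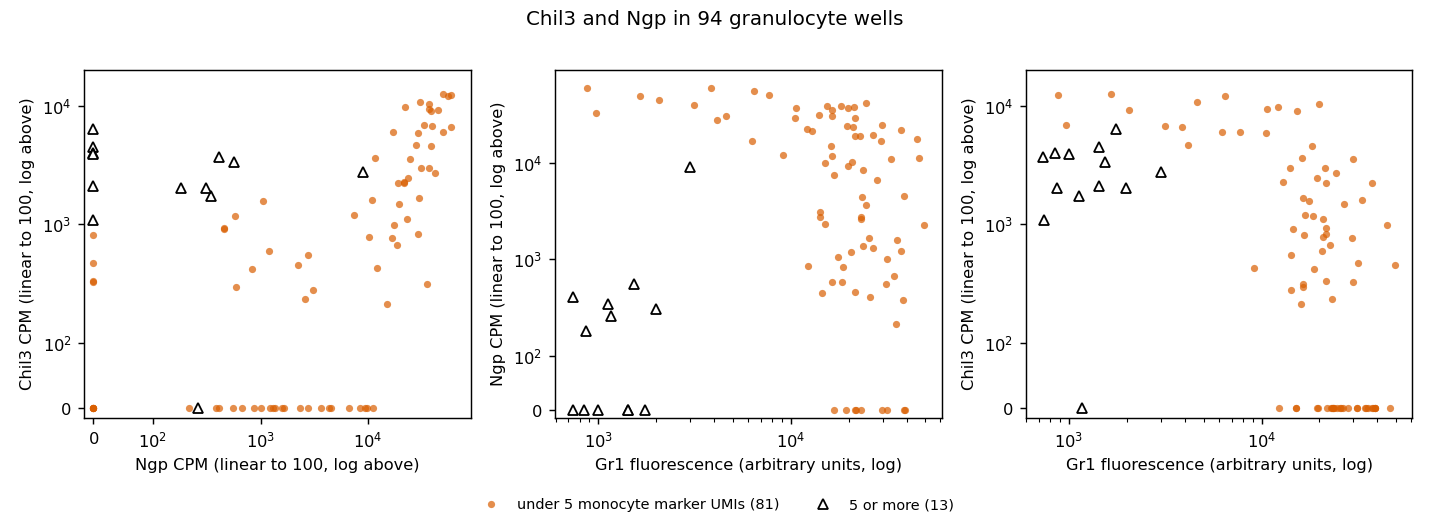
CPM of Chil3 against Ngp, and of each against Gr1 fluorescence, in the 94 granulocyte wells; CPM axes are linear to 100 and logarithmic above, the Gr1 axis is logarithmic, and open triangles are the 13 wells with 5 or more monocyte marker UMIs. At low Gr1 the triangles, except I17, hold Chil3 and, except I13, little Ngp, while the 12 filled wells with Gr1 under 10000 hold 12076 to 59072 CPM of Ngp and 424 to 12585 CPM of Chil3.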

How the data were processed

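Single cells were profiled by CEL-seq2, which counts transcripts at their 3′ end by UMI. The file the authors deposited holds raw UMI counts for each gene in each well, made with scPipe by alignment, assignment to exons, demultiplexing by barcode, and merging of UMIs. The aligner version, genome build and strand setting were details not given in the sources used here. Of the table's columns, 9 matched no sample and were left out, and 74 ERCC spike-ins were left out of totals. Symbols and positions came from GENCODE M21, which named 19755 IDs.

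Here counts were summed per population and scaled to CPM. Intervals were exact Poisson, binomial, conditional binomial and, for ratios of ratios, Fisher's conditional. Correlations used granulocyte wells with at least 1000 mouse UMIs. Doublets were not called, since wells were index-sorted. Scripts were tested on simulated data. Tools were Python 3.11.15 with numpy 2.4.6, pandas 2.3.3 and scipy 1.17.1, and R 4.3.3 with edgeR 4.0.16, DESeq2 1.42.0 and scran 1.30.0, for size factors only. Named genes were the members, the lists, and the 8 nearest and 5 farthest genes to the summed members and 3 nearest to each member, with the farthest over 81 wells added; 1 gene that the rule names is not reported here or counted in its list. Members and lists were chosen with earlier results of these data known. The division by monocyte markers (5 UMIs) and by Gr1 (10000) was chosen after seeing the data.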

Additional observations from a re-analysis of the deposited data

How the results depend on the processing

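The 6 members stayed higher in the granulocytes under every alternative run. The log2 ratio of their sum, 5.69 over the progenitor/stem cells, 5.03 over the B lymphocytes, 5.02 over the T lymphocytes and 6.22 over the erythroblasts, left its counting interval as follows. As the mean of per-well CPM it was 5.44, 4.59, 4.61 and 5.62 in that order. With TMM factors it was 6.46, 5.70 and 5.77 over the first 3, and with DESeq2 size factors 6.63, 5.63 and 5.78; these scalings move all genes of a pair alike. Without the 13 granulocyte wells with monocyte markers (added after seeing the data) it was 6.00, 5.34, 5.33 and 6.53. Without the top well of each other population (also added) it was 5.82 over the progenitor/stem cells and 5.38 over the B lymphocytes, whose top well is A8, so that leaving out A8 alone also gave 5.38, and without wells nearest to another population it was 5.48. The other 18 values stayed within their intervals. The ratio of Lcn2 to Ngp outside the granulocytes stayed within its intervals in 20 of 20 alternatives, all added, at 2.74 to 5.18 times that of the granulocytes. The log2 ratio of T over B lymphocytes for the sum (0.01) was 0.36 without A8, 0.40 without wells nearest to another population and 0.20 (interval -0.11 to 0.51) without the top well of each, so the order of these populations is not settled; these, too, were added. With a minimum of 50 UMIs, 289, 297 and 566 genes were 4-fold higher over the progenitor/stem cells, T lymphocytes and erythroblasts in place of 441, 463 and 1110, and with a minimum of 1 UMI, 1680 over the erythroblasts.

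The median of the 15 pair correlations was 0.61, and 0.79 without the wells with monocyte markers. That of the pairs of Chil3 was 0.52, and without those wells 0.76, or 0.67 with thinning and 0.65 given total UMIs. That of Ltf, Camp, Ngp and Lcn2 was 0.85, and 0.76 without those wells given total UMIs. That of Cd177 was 0.58, and 0.28 when thinned, 0.25 when thinned without those wells and 0.34 without them given total UMIs. The cause of these shifts was not tested. No pair of members changed sign in 195 values. Of 65 values for Chil3 and Ngp with Retnlg, and for Chil3, Ngp and Lcn2 with Gr1, 6 did. Given total UMIs, Ngp with Gr1 went from -0.11 to 0.11 and Ngp with Retnlg from -0.15 to 0.04. Lcn2 with Gr1 went from 0.06 to between -0.37 and -0.16 in the 4 settings without the wells with monocyte markers. Ltf, Camp and Cd177 with Gr1 were not among the 65 values. Given total UMIs over the 94 wells they also changed sign, from -0.18, -0.16 and -0.12 to 0.04, 0.10 and 0.04.

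No paired analysis was possible because each population is 1 sample of 1 mouse and replicate numbers only name wells. With 1 sample per group there is no replicate spread. At a median of 3880 UMIs per granulocyte well, Cd177, Cebpe and the primary granule genes were too sparse for correlations to be read beyond a description.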
